A study of Mus musculus with 12 samples.

Results

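The miR-302 and miR-367 cluster is a run of 5 microRNA hairpins on mouse chromosome 3: Mir302b, Mir302c, Mir302a, Mir302d and Mir367. Its members were taken by gene name from 3 tables of RNA levels, and 5 of the 36883 rows in each table belong to it. The tables compare wild-type mouse embryonic stem (ES) cells, pluripotent cells derived from the blastocyst, with Drosha-deficient ES cells. Each genotype gave 1 library of mRNA, 1 of long RNA and 1 of short RNA, the long RNA table being matched to its samples by elimination. Cells of both genotypes were grown in medium with serum and leukemia inhibitory factor, and the labels name no treatment. For the RNA samples the labels give a genotype and a cell type, but no line, strain or clone, and no exon or allele of Drosha. With 1 library per group no difference has a replicate check and no test of the genotypes is possible.

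MicroRNAs are made from long primary transcripts that fold into hairpins. The nuclear enzyme Drosha, with its partner Dgcr8, cuts the hairpin free, Dicer1 trims it to a short duplex, and a strand of the duplex guides the silencing of mRNAs that match its seed, the bases 2 to 8 from the 5′ end. The miR-302 and miR-367 hairpins are cut from a common primary transcript that is active in pluripotent cells, more so in primed epiblast cells than in naive ES cells. In mouse ES cells the miR-290 cluster supplies most microRNAs with the miR-302 seed. These families are known for easing the passage through the cell cycle and for tuning Nodal signalling.

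The mature sequences from RefSeq (GRCm38.p6, positive strand) show how the members relate. They are written 5′ to 3′ with the seed in capitals, and Mir302a is shown by its 5′ arm.
miR-302b-3p (chr3:127545275-127545297): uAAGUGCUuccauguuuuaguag
miR-302d-3p (chr3:127545665-127545687): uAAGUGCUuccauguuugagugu
miR-302c-3p (chr3:127545406-127545427): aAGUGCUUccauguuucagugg
miR-367-3p (chr3:127545779-127545800): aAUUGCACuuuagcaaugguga
miR-302a-5p (chr3:127545501-127545522): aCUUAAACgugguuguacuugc

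The 3′ arms of Mir302b and Mir302d shared the seed AAGUGCU and were identical over their first 17 bases, differing at 3 of 23 positions. As annotated, the 3′ arm of Mir302c starts 1 base further in, so that its bases 2 to 8 read AGUGCUU. Set against miR-302d-3p without that first base, it was identical over 16 bases and differed at 2 of 22 positions. Mir367 had an unrelated seed, AUUGCAC, which it shared with 6 other genes of the RefSeq table, among them Mir363 and Mir92-2. The seed AAGUGCU was shared with Mir291a, Mir294 and Mir295 of the miR-290 cluster. Their 3′ arms, and that of Mir363 on the negative strand of the X chromosome, are shown to set the shared seeds beside the differing tails.
miR-291a-3p (chr7:3218968-3218989): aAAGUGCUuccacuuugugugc
miR-294-3p (chr7:3220691-3220712): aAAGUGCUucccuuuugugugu
miR-295-3p (chr7:3220815-3220837): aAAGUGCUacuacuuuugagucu
miR-363-3p (chrX:52741697-52741718): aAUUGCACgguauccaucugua

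The hairpins of Mir302d and Mir367 are shown whole because they had the highest and the lowest level in the cluster. Capitals mark both mature arms, which Drosha and Dicer1 release from the lower-case flanks and loop.
Mir302d (chr3:127545624-127545689): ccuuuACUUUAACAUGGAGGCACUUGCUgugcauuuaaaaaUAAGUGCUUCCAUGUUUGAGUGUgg
Mir367 (chr3:127545733-127545807): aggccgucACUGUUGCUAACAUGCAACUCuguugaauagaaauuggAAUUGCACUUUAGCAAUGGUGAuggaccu

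The 5 hairpins lie within 580 bases, from 127545228 to 127545807, and are 66 to 75 bases long with gaps of 43 to 65 bases. All lie within the span of Larp7 (127536714 to 127553349 in RefSeq), a gene for an RNA-binding protein that protects the 7SK RNA. The hairpins are on the positive and Larp7 on the negative strand. A strand setting for the authors' counting was not given in the sources used here. Reads of the hairpins and of Larp7 therefore cannot be told apart by strand. Exons of Larp7 were not looked up here. The hairpin of Mir302a lies at 127545496 to 127545564, that of Mir302b at 127545228 to 127545301 and that of Mir302c at 127545363 to 127545430.

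Values are FPKM, the fragments of a row scaled to its length and to the depth of the library, as the authors deposited them. A log2 difference is log2((Drosha-deficient FPKM + 1)/(wild-type FPKM + 1)), and a row is called higher or lower when this is at least 1 in size. A row counts as measured when the authors' status was OK and a library reached 1 FPKM. Where a pair of values is given, the wild-type value comes first. The targeted gene followed its label, since Drosha stood at 42.1 and 6.22 FPKM in mRNA and at 21.2 and 4.34 FPKM in long RNA. Dgcr8, whose mRNA carries hairpins that Drosha cuts, was higher (12.4 and 73.5 FPKM in mRNA), and Dicer1 was called neither (16.6 and 26.0 FPKM in mRNA). In these bulk samples, fewer cells with an RNA and less of it per cell cannot be told apart.

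In short RNA all 5 members were measured and all 5 were lower in Drosha-deficient cells. Over the 2597 rows measured, 18.4% were lower and 14.8% higher, but 146 of the 157 microRNA genes measured were lower, so the members' direction was that of microRNAs in general. The split of all rows depends on the scaling: with structural RNAs as the reference, 76 rows were higher and 1449 lower, and with equal sums outside microRNAs 538 and 393. All 5 members were lower under both. Of the 7 structural RNAs measured, 5 were higher and 1 was lower (median 1.41). Mir302d had the highest level, with 17206 FPKM in wild-type and 196 FPKM in Drosha-deficient cells, 87.9-fold lower. Mir302a had 8259.8 and 28.2 FPKM and was 293-fold lower. Mir302b had 7328 and 45.2 FPKM and was 162-fold lower. These 3 hairpins carried most of the cluster's wild-type signal and stood 22nd, 26th and 31st by level among the 157 microRNA genes.

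Mir302c, the member with the shifted 3′ seed, had 721 and 29.6 FPKM and was 24.4-fold lower. Mir367 had 28.7 FPKM in wild-type cells and was listed at 0 in the others. The log2 differences of the miR-302 genes were -8.14 for Mir302a, -7.31 for Mir302b, -6.45 for Mir302d and -4.56 for Mir302c. That of Mir367 was -4.89, but with a value of 0 in a library it is set by the pseudocount: it was -8.17 with a pseudocount of 0.1, -2.75 with 5 and -2.49 from recovered fragments, so Mir367 has no firm place in this order. The median of the 5 was -6.45. The median over all microRNA genes measured was -5.55, and over all rows -0.03. Of the 152 other microRNA genes measured, 94 were listed at 0 in Drosha-deficient cells. The microRNA median therefore also depends on the pseudocount and is no firm size of loss. In wild-type cells Mir302d stood 2.08-fold above Mir302a, 23.9-fold above Mir302c and 599-fold above Mir367. In the authors' deposited table, the Cuffdiff p-values for the 5 members in short RNA ran from 0.191 to 0.375 and the q-values from 0.774 to 0.862. They compare 1 library with 1 library.

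**Figure D1:**
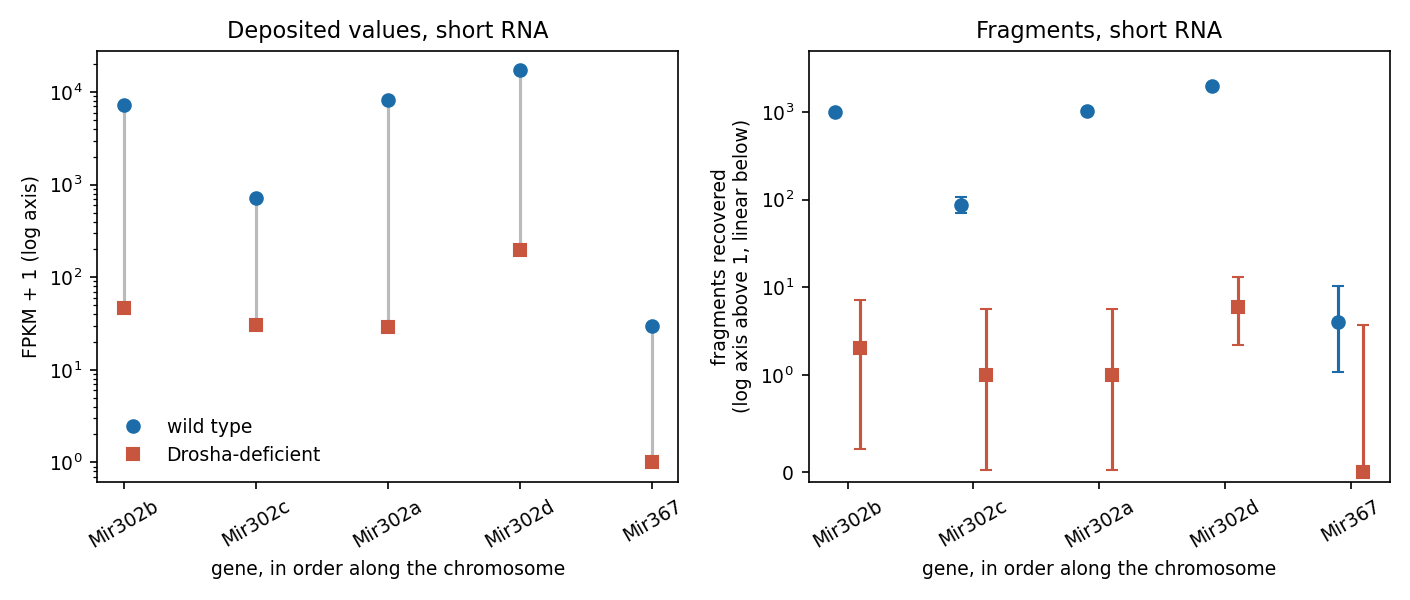
Left: deposited FPKM + 1 (log axis) of the 5 genes in short RNA, with wild type as circles and Drosha-deficient as squares. Right: the fragments recovered for the same rows, with exact 95% Poisson intervals; each wild-type value of a miR-302 gene is at or above 87 fragments, and the Drosha-deficient values are 0 to 6.

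The number of fragments behind these levels could be recovered from the FPKM, a step added after the data were seen. In the rows of short transcripts that stand alone, FPKM values of a given length were whole multiples of a single step, the value of 1 fragment. The step was read from such rows as a function of length, without the members. Divided by it, all 16 member values above 0 in the 3 tables lay within 0.0077 of a whole number. Depth estimated from the same steps was 2.72e+06 and 3.05e+06 fragments in the wild-type and Drosha-deficient short RNA libraries, 1.913e+07 and 2.274e+07 in long RNA, and 2.228e+07 and 2.515e+07 in mRNA.

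The wild-type short RNA values of the cluster stood for 1985 fragments of Mir302d (exact 95% Poisson interval 1899 to 2074) and 1019 of Mir302a (957 to 1084). Mir302b had 1002 (941 to 1066), Mir302c 87 (69.7 to 107) and Mir367 4 (1.09 to 10.2). The intervals of Mir302a and Mir302b overlap, so these neighbours in the order of levels did not differ beyond counting error, while the other neighbours did. Mir302d made up 48.5% of the cluster's 4097 fragments, Mir302a 24.9%, Mir302b 24.5%, Mir302c 2.12% and Mir367 0.098%. These intervals cover counting error only.

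In the Drosha-deficient library the whole cluster came to 10 fragments (4.80 to 18.4). Mir302d had 6 of them, Mir302b 2, Mir302a 1 and Mir302c 1, and Mir367 had 0. The floor used here for a count of 0 is 3 fragments, and its exact 95% Poisson interval reaches 3.69. Relative to the estimated depth the cluster was 459.7-fold lower, with an exact conditional 95% interval of 249.7 to 959 from counting alone. The ratios were 371 (170.3 to 1013) for Mir302d, 562 (155 to 4649) for Mir302b, 1143 (205 to 45208) for Mir302a and 97.6 (17.1 to 3899.8) for Mir302c. These intervals overlap between all 4 miR-302 genes, so no order of loss among them was detectable at this depth. For Mir367, 4 fragments set against the floor of 3 would give a level 1.496-fold lower. The counting intervals of its 4 and 0 fragments overlap, so a loss of Mir367 was not detectable at this depth.

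The ratios in fragments are larger than those in FPKM because 1 fragment was worth more FPKM in the Drosha-deficient library. On the 69-base hairpin of Mir302a it was worth 8.11 FPKM in wild-type and 28.1 FPKM in Drosha-deficient short RNA, a ratio of 3.47, and over the 5 hairpins the ratio ran from 3.02 to 3.76. Depth alone would give 0.891. The line through 1 divided by the step reached 0 at a length of 23.9 bases in the wild-type and 66.0 bases in the Drosha-deficient library. Where FPKM is scaled to transcript length less the mean fragment length, this point is that mean. The part of this difference between the libraries in the loss of the cluster was not tested. Among other microRNA rows, 2 were chosen after their values were seen. Mir320, whose hairpin is known to form without Drosha, had 359 and 2277 fragments. Mir5099 had fewer fragments in the Drosha-deficient library (20717 and 9188) but a higher FPKM (151520 and 207566), so its direction differed between the scales.

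**Figure D2:**
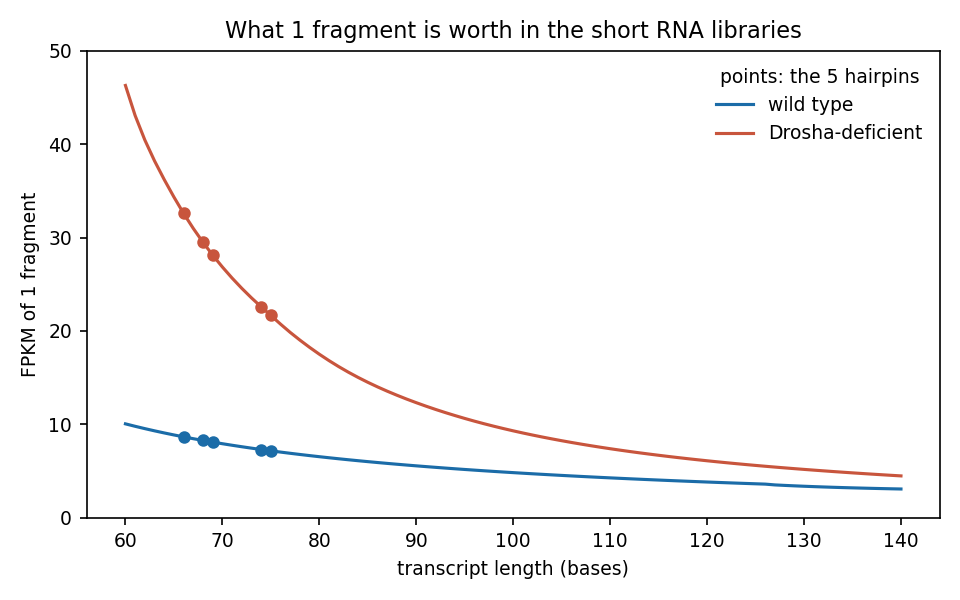
The FPKM that 1 fragment stands for (vertical axis) by transcript length in bases (horizontal axis) in the wild-type and Drosha-deficient short RNA libraries; points mark the lengths of the 5 hairpins. At 69 bases the curves read 8.11 and 28.1 FPKM.

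Many microRNAs of similar wild-type abundance were listed at 0 in Drosha-deficient cells. Of 52 other microRNA genes with wild-type levels between those of Mir302c and Mir302d, 50 were lower, 29 were listed at 0 in Drosha-deficient cells and 23 were above 0, with a median difference of -9.75. The difference of a row listed at 0 depends on the pseudocount, so this median is no firm size of loss. All 4 miR-302 genes were above 0, by 1 to 6 fragments. This comparison was chosen after the values were seen and was not tested. By distance between the pairs of log2(FPKM + 1) levels in both short RNA libraries, the microRNA genes most like the median member were Mir136 (distance 0.98), Mir543 (1.44), Mir96 (1.78), Mir143 (2.03) and Mir34c (2.08). Mir136 had 5128 and 16.2 FPKM, Mir543 16747 and 52.5 FPKM, and Mir34c 2508 and 79.4 FPKM. The likeness rests on 2 libraries and includes the genotype difference itself.

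**Figure D3:**
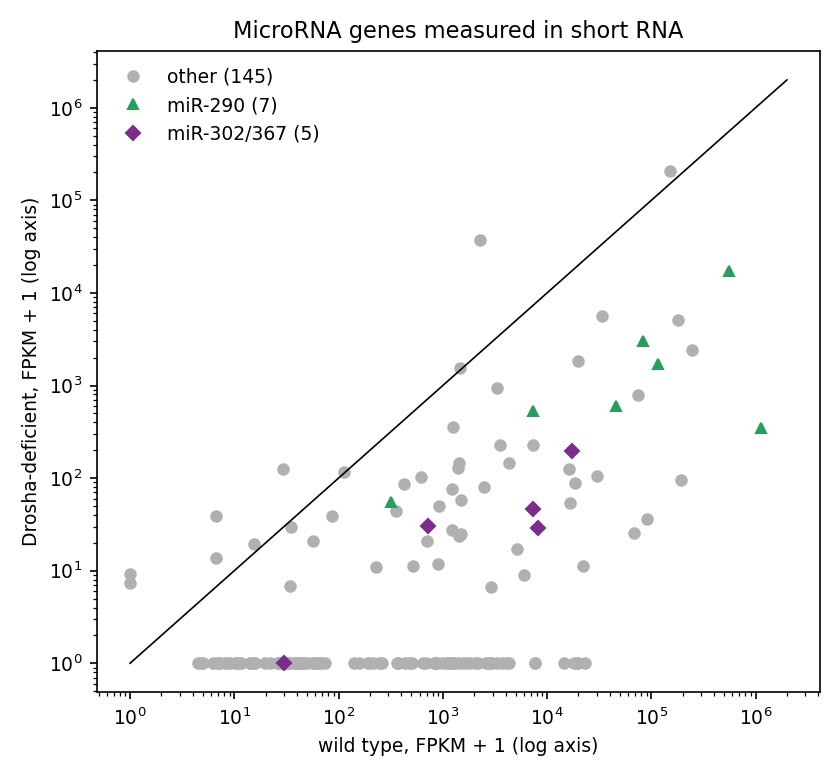
FPKM + 1 of the 157 microRNA genes measured in short RNA, wild type (horizontal) against Drosha-deficient (vertical), both on log axes, with the line of equal levels. The 5 genes of the cluster (diamonds) lie below the line, as do the 7 of the miR-290 cluster (triangles); rows at 1 on the vertical axis are listed at 0.

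The miR-290 cluster, in which Mir291a, Mir294 and Mir295 share the AAGUGCU seed, was more abundant. Its 7 genes with a row had 297904 wild-type fragments, against 4093 of the 4 miR-302 genes, which were 1.36% of both together (exact binomial 95% interval 1.31 to 1.40). In Drosha-deficient cells the counts were 1418 and 10, a share of 0.70% (0.336 to 1.28). The miR-290 cluster was 236-fold lower relative to depth (224 to 249), against 459.3-fold (249.5 to 959) for the 4 miR-302 genes. Mir293 alone gave 173624 of the wild-type and 20 of the Drosha-deficient miR-290 fragments, and so weighs heavily in the pooled ratio. By FPKM, the log2 differences of the 7 miR-290 genes ran from -11.66 to -2.52, so 236-fold is not the loss of each gene. The intervals of the pooled ratios do not overlap, but their nearest bounds, 248.5 and 249.5, lie close together. The intervals cover counting error only, in 1 library per genotype, so whether the clusters differed in their loss was not tested.

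Among the miR-290 hairpins with the seed of Mir302b and Mir302d, Mir291a had 83824 and 3027 FPKM, Mir295 115394 and 1721 FPKM, and Mir294 45569 and 601 FPKM. Mir302a, Mir302b and Mir302d had 4006 of the 38952 wild-type fragments of themselves and those 3 hairpins, or 10.3% (9.98 to 10.6), and 9 of 297 in Drosha-deficient cells, or 3.03% (1.39 to 5.67). These intervals too cover counting error only, the libraries differ in the value of a fragment as given above, and a difference between the genotypes was not tested. A row sums both arms of a hairpin, so these shares are of hairpins and not of the seed-bearing strand. Mir302a, with 1019 of the wild-type fragments, was included although no 3′ arm was given for it. Its 3′ seed was therefore not checked. Of the miR-367 seed, Mir363 (18142 FPKM, 2529 fragments) and Mir92-2 (19314 FPKM, 3522 fragments) were listed at 0 in Drosha-deficient cells, as Mir367 was, while Mir25, Mir32, Mir92-1 and Mir92b had no row of their own. Mir367 thus gave 4 of the 6055 wild-type fragments counted for that seed. The other miR-290 genes were lower too: Mir293 had 173624 fragments in wild-type and 20 in Drosha-deficient cells, Mir292 88095 and 1073, Mir290a 1191 and 34, and Mir291b 48 and 3.

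In long RNA the hairpin rows were barely covered. The wild-type library held 4 fragments each of Mir302b (6.88 FPKM), Mir302a (8.05 FPKM) and Mir302d (8.92 FPKM) and none of Mir302c and Mir367. The Drosha-deficient library held 2 fragments of Mir367 (4.23 FPKM) and none of the others. By the size rule 3 of the 4 members measured were lower and 1 was higher, beside 6.89% lower and 6.26% higher over the 13933 rows measured, and, of 114 microRNA genes measured, 62 lower and 22 higher (median -1.31). Summed, the cluster had 12 wild-type and 2 Drosha-deficient fragments, 7.13-fold lower relative to depth with a counting interval of 1.59 to 65.6. For each single member the counting intervals of the genotypes overlap.

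In mRNA the calls rested on single fragments. Mir302b (1.91 FPKM) and Mir302d (2.56 FPKM) had 1 fragment each in wild-type and none in Drosha-deficient cells, and Mir302a had none and 1 (3.20 FPKM). Mir302c and Mir367 were listed at 0 in both. Thus 2 of the 3 members measured were lower and 1 was higher, with 7.93% lower and 8.64% higher over 14752 rows. Of the 71 microRNA genes measured in mRNA, 36 were higher and 24 lower (median 1.07). A count of 0 allows up to 3 fragments in any of these libraries, so a difference of 1 or 2 fragments in a single member was not detectable at this depth. The rows cover the hairpins alone, and the rest of the primary transcript was not analysed here. The direction differed between members in both fractions, with Mir302b and Mir302d called lower in both and no member called higher in both.

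**Figure D4:**
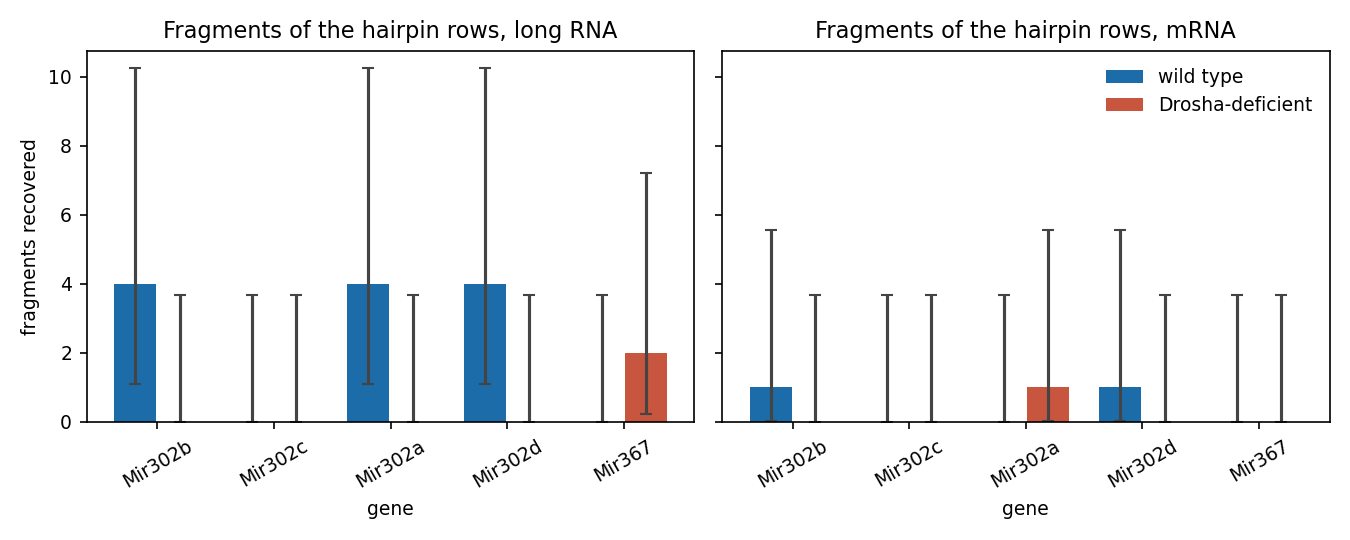
Fragments recovered for the 5 hairpin rows in long RNA (left) and mRNA (right), wild type and Drosha-deficient, with exact 95% Poisson intervals. No bar exceeds 4 fragments.

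Of Larp7 and the 6 neighbouring genes taken, only Larp7, Zgrf1 and Ank2 were measured, in mRNA and long RNA. Ank2 was the one called, and in mRNA alone, where 8.64% of all rows were higher. Larp7, on the opposite strand, stood at 17.5 and 29.0 FPKM in mRNA (log2 difference 0.70) and at 13.7 and 24.4 FPKM in long RNA (0.78). In short RNA Larp7 had 0.198 and 1.04 FPKM and was not measured. Zgrf1, a helicase gene that lies 140 bases beyond the Larp7 span, had 6.10 and 5.71 FPKM in mRNA. Neurog2, a neural factor, and Alpk1, a kinase gene, were below 1 FPKM in all 6 libraries, as were Gm25501 and Gm16958 on the other side. Gm25501, Gm16958 and Ank2 are listed at the same distance, 37694 bases, so which of them lies nearest is not known. Ank2, which encodes a membrane adaptor, was higher in mRNA (2.15 and 5.64 FPKM) and not in long RNA (2.08 and 3.21 FPKM).

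Factors that are reported to act at the promoter of the cluster were expressed in both genotypes. Of 12 listed, 11 were measured in mRNA, with 1 higher and none lower (median 0.22), and 10 in long RNA, with none called (median 0.16). Of all rows, 8.64% were higher and 7.93% lower in mRNA, and 6.26% and 6.89% in long RNA. The medians of all rows were 0.01 and -0.04. The core factors had 562 and 700.4 FPKM (Pou5f1), 257 and 299.8 FPKM (Sox2) and 192 and 207 FPKM (Nanog) in mRNA. Sall4, a zinc finger factor, was the higher one, at 37.9 and 105 FPKM in mRNA; in long RNA it was called neither (22.4 and 33.3 FPKM).

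The other listed factors in mRNA were Zfp42 (154 and 172 FPKM), Ctnnb1, the Wnt effector (265 and 338 FPKM), and Esrrb, a nuclear receptor (113 and 94.4 FPKM). Tcf7l1, a repressor of Wnt targets, had 11.8 and 22.1 FPKM, Tcf3 40.9 and 46.5 FPKM, Klf4 14.8 and 13.3 FPKM and Tbx3 7.65 and 11.8 FPKM. The list holds both symbols, Tcf7l1 and Tcf3, and which of these genes the reports mean was not checked here. Gata6, an endoderm factor reported to drive the cluster in lung, had 0.431 and 0.135 FPKM and was not measured. Thus none of the measured factors was lower by the size rule in either fraction. Sox2 was not among those measured in long RNA. The lowest log2 difference of a measured factor was that of Klf4 in long RNA (10.6 and 5.30 FPKM, -0.88). The ES cell markers of the labelled cell type were present: all 11 were measured in mRNA, with a summed level of 2449.9 and 2728 FPKM. Klf2 was higher (175 and 393 FPKM) and the other 10 were called neither, beside 8.64% of all rows higher in mRNA. In long RNA the 10 other than Sox2 were measured and 0 called, with summed levels of 1013 and 983 FPKM. The marker median was 0.10 in mRNA and -0.30 in long RNA, beside 0.01 and -0.04 for all rows. The lowest marker in long RNA, Tfcp2l1, had 17.1 and 8.45 FPKM (log2 difference -0.93).

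Most of the 32 reported targets of miR-302 stayed within the size rule. In mRNA 24 of the 29 measured were called neither, 5 higher and 0 lower, and their median log2 difference was 0.49. For the 28 measured in long RNA these counts were 23, 4 and 1, and the median was 0.33. Beside these stand 8.64% of all rows higher and 7.93% lower in mRNA, and 6.26% and 6.89% in long RNA. The medians of all rows were 0.01 in mRNA and -0.04 in long RNA. Since miR-290 genes with the same seed were lower too, the parts of both clusters in these values cannot be told apart. Lats2, a kinase of the Hippo pathway, had no row of its own.

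Bmi1, a polycomb subunit, differed most of the list in both fractions: its mRNA values were 0.713 and 7.38 FPKM, and its long RNA values 1.56 and 8.13 FPKM. Both genes for the Lefty proteins, which restrain Nodal, were higher. Lefty1 had log2 differences of 1.48 in mRNA and 1.34 in long RNA, and Lefty2 of 1.501 and 1.11. Ccnd1, a cyclin of the G1 phase, was higher in mRNA, at 24.7 and 65.5 FPKM. Wee1, a kinase that delays mitosis (21.2 and 46.9 FPKM in mRNA), Ei24 (33.7 and 71.3 FPKM in long RNA) and Rhoc, a small GTPase and the lower one (33.0 and 10.4 FPKM in long RNA), are named after their values were seen. The inhibitors of the G1 to S transition that are the best known targets were called in neither fraction: in mRNA Cdkn1a had 56.0 and 49.6 FPKM, and Rbl2 had 5.88 and 9.36 FPKM.

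Reported targets of the miR-367 family were called about as often as other rows. Among the 11 measured in mRNA, 1 was higher and 1 lower (median 0.20), and among the 10 measured in long RNA, 0 were higher and 1 was lower (median -0.11). Over all rows 8.64% were higher and 7.93% lower in mRNA, and 6.26% higher and 6.89% lower in long RNA. Fbxw7, a ubiquitin ligase subunit, was the higher one, at 7.62 and 16.4 FPKM in mRNA; in long RNA it was called neither (10.4 and 16.1 FPKM). Cdkn1c, an imprinted inhibitor of the cell cycle, was the lower one, at 15.7 and 5.61 FPKM in mRNA, and lower in long RNA too (10.6 and 4.35 FPKM). Smad7, an inhibitor of TGF-beta signalling, had 15.6 and 15.9 FPKM in mRNA and was not called. The median of this list had opposite signs in the 2 fractions.

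**Figure D5:**
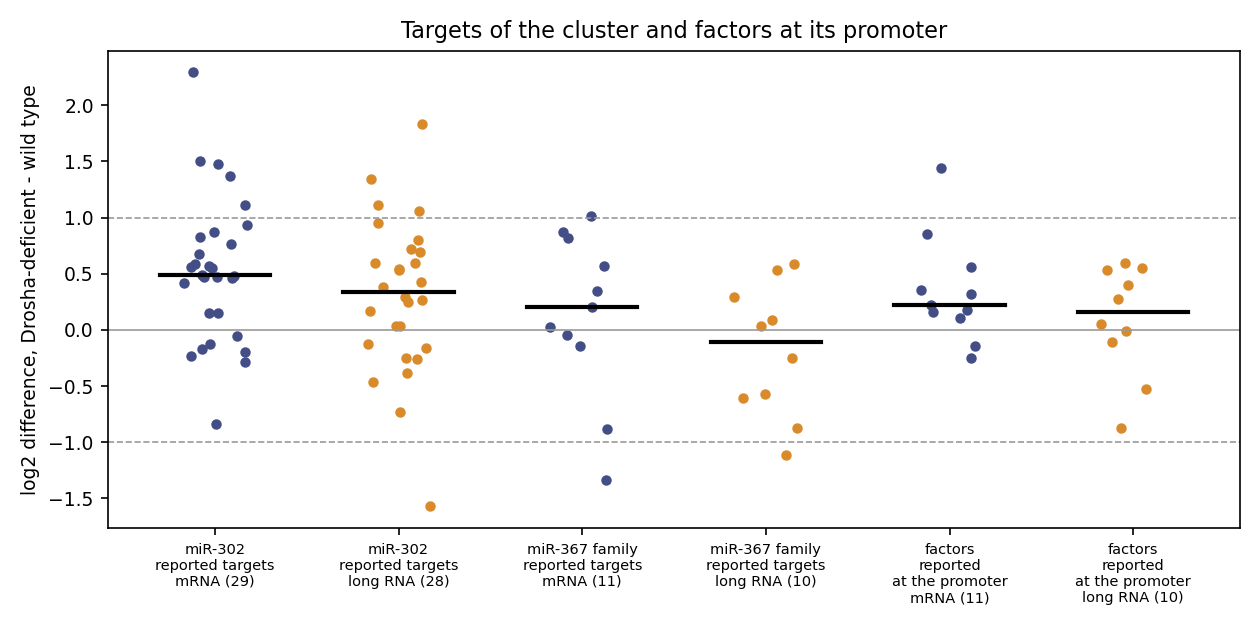
Log2 difference, Drosha-deficient minus wild type, of each measured gene of 3 lists in mRNA and long RNA; black bars are medians and dashed lines mark the size rule of 1 and -1. The miR-302 target medians lie at 0.49 and 0.33 and most points lie between the dashed lines.

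Primed epiblast and fibroblast markers also differed between the genotypes. Beside the counts below stand 8.64% of all rows higher and 7.93% lower in mRNA, and 6.26% and 6.89% in long RNA. Of the 10 primed epiblast markers measured in mRNA, 9 were higher and 0 lower (median 1.28), and their summed level was 99.1 and 313 FPKM. Of the 9 measured in long RNA, 4 were higher and 0 lower (median 0.86). Foxd3 had 1.40 and 19.7 FPKM and Otx2 12.4 and 67.3 FPKM in mRNA. Most measured fibroblast markers went the other way. In mRNA 5 of 8 were lower, in long RNA 6 of 8, and 0 were called higher. The listed markers summed to 274 and 102 FPKM in mRNA, while the long RNA sums were 158 and 58.5 FPKM. Vim was the largest part of each sum, with mRNA levels of 154 and 90.5 FPKM. Its long RNA levels were 111 and 54.6 FPKM. Dcn, below 1 FPKM in these libraries and so not measured, went up, by log2 differences of 0.89 (mRNA) and 0.93 (long RNA). Fbn1 was called neither, at 0.32 (mRNA) and -0.13 (long RNA). The collagen gene Col1a2, with the lowest log2 difference of the list, had 19.6 and 0.116 FPKM in mRNA. Primitive endoderm markers summed to 235 and 229 FPKM in mRNA, where 1 of 4 measured was lower. Sparc gave 222 and 219 FPKM of these sums, while Gata6, Sox17, Pdgfra and Foxa2 were below 1 FPKM and not measured. In long RNA 0 of 3 were called. None of the listed markers of these states was at 0 in both libraries, and the markers named here were chosen after their values were seen. The part of these differences in the levels of the cluster or of its targets was not tested.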

How the data were processed

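The series has 12 samples, of which 6 RNA libraries were used and 6 samples were not analysed here. Groups came from the sample titles. The samples titled total RNA were matched to the long RNA table by elimination. The authors deposited gene-level FPKM values, and per the submitters' processing notes the tools were TopHat2 2.0.10, Cufflinks 2.1.1, Cuffdiff and bcl2fastq 1.8.4, with mm10/GRCm38. The library kit is a small RNA kit per the labels' protocols. The annotation, scaling and strand setting were not given in the sources used here. Per the deposited tables, the authors' p-value and q-value come from Cuffdiff on 1 library per genotype.

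Rows were compared genome-wide by log2(FPKM + 1) difference and a size rule of 1, with a minimum of 1 FPKM and the authors' status OK. Fragments were recovered from FPKM steps in standalone rows up to 200 bases long, taking values within 2% of a whole multiple of the step. Over rows under 50 fragments, 98.9% to 100% of values lay within 0.05 of a whole number. The procedure was tested on simulated data. Intervals are exact at 95%, and the floor is 3 counts. All 5 members matched RefSeq, which gave 4 of their 3′ and 5 of their 5′ arms. Members, lists and rules were chosen with earlier results of these data known. Named genes were the members, seed-sharing and miR-290 microRNAs, locus neighbours, promoter factors, up to 4 higher and 4 lower targets by size in mRNA with 7 targets fixed, and the 5 most alike microRNAs. Alternatives were other pseudocounts, minimums, status filters and scalings. Python 3.11.15, pandas 2.3.3 and SciPy 1.17.1 were used.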

Additional observations from a re-analysis of the deposited data

How the results depend on the processing

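No paired analysis was possible because each genotype has 1 library per fraction and no replicate can be left out. All 5 members were still called lower by size in short RNA under each of the 9 alternatives, although the counting intervals of Mir367 overlap between the genotypes. Other minimums and status filters could not change the members' values, since every member already passed. The scalings could not move Mir367, which is listed at 0 in Drosha-deficient cells. The cluster median ran from -8.31 to -6.19, and was -8.31 with recovered fragments, which was chosen after seeing the data. Setting the median of the structural RNAs to 0 moved the median of all short RNA rows to -1.11, with 76 rows higher and 1449 lower (95.02% of calls lower, against 55.4%), and equal sums outside microRNAs gave 42.2%. In mRNA, 0 members were higher and 0 lower with a pseudocount of 5 or a minimum of 5 FPKM, and in long RNA 0 were higher under either. Of all rows, a pseudocount of 5 left 131 higher and 279 lower in short RNA (68.0% lower), 315 and 335 in long RNA, and 551 and 373 in mRNA. Without the status filter 822 and 883 short RNA rows were called. With a pseudocount of 0.1, 1592 rows were lower in long RNA and 1884 in mRNA. With a minimum of 5 FPKM, 542 were higher in long RNA and 779 lower in mRNA. The primed epiblast median was 0.91 in mRNA with a pseudocount of 5, and in long RNA 1.4998 with a pseudocount of 0.1 and 1.89 with a minimum of 5. The fibroblast medians were -0.66 and -0.75 with a pseudocount of 5. The cause of these shifts was not tested. The miR-302 target medians ran from 0.42 to 0.58 in mRNA and from 0.26 to 0.53 in long RNA. The long RNA and mRNA rows of the members hold at most 4 fragments each, so their calls rest on counts within counting error of each other.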
